A study of Mus musculus with 12 samples.

Results

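RNA from macrophages was set against RNA from T cells, both purified from lung tumours of mice given vehicle, the solvent control of the study's JQ1 and ricolinostat arms. The comparison holds 4 of the 12 libraries of the series, 2 of macrophages and 2 of T cells, and was made over all 770 probes with no drug-treated library. All 4 come from lung tumours of a genetically engineered model labelled KrasTrp53, on a mixed strain background, so the tumour model, tissue and vehicle are shared by both cell types. The labels give no sex, age, number of animals or purification gate, and do not say whether the replicates of a group are separate animals. Spread between 2 libraries, and every p-value built on it, may therefore be technical.

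Each probe has 1 normalised signal per library on a linear scale. Total signal lay between 3563270 and 3971330 per library. Low values sat on an even lattice whose step is the signal of 1 count, which places the depth at 1229100 and 773600 counts above background in the macrophage libraries and 1881200 and 1876800 in the T cell libraries. A signal of 20, used here as the background level, stands for 6.90 and 3.97 counts in the macrophage libraries, against 10.2 and 9.45 in the T cell libraries, so low genes are measured less precisely in macrophages. Between 543 and 635 probes per library exceeded it. The lattice steps of the macrophage libraries were 2.90 and 5.03, the readings that recur below for many genes. For such genes the macrophage part of the spread behind an SE or p-value is the difference between the steps, not measured variation. Replicates ranked the probes alike, with a Spearman correlation across genes of 0.975 between macrophage libraries and 0.985 between T cell libraries, against 0.895 to 0.902 across the cell types.

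T cells recognise antigen through a receptor whose signal leaves the cell membrane by way of the CD3 chains and the kinases Lck and Zap70. Macrophages take up particles and dying cells, and those of the lung are rich in lysozyme, chitinase-like proteins and scavenger receptors. In tumours both populations also carry receptors or ligands of the inhibitory and costimulatory pairs through which T cell responses are tuned.

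Macrophage transcripts were as abundant in the libraries labelled T cells as in those labelled macrophages. The 25 measured macrophage identity genes held 38.5% and 33.3% of all signal in the macrophage libraries, against 39.5% and 36.1% in the T cell libraries. Lyz2, the lysozyme of myeloid cells, and Chil3, a chitinase-like protein of lung macrophages, together made up 32.7% and 27.5% of macrophage signal and 34.9% and 31.4% of T cell signal. The 21 measured T cell identity genes held 0.0125% and 0.0242% of signal in macrophages and 0.253% and 0.219% in T cells. T cell genes thus part the groups by about an order of magnitude, whereas the label "T cells" goes against the macrophage genes in the same libraries. Epithelial genes, 11 measured, held 0.111% and 0.123% of signal in macrophages and 0.462% and 0.541% in T cells. The part that macrophage and epithelial RNA plays in the differences below was not tested. In purified bulk RNA, fewer cells of a type and less RNA per cell cannot be told apart.

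**Figure D1:**
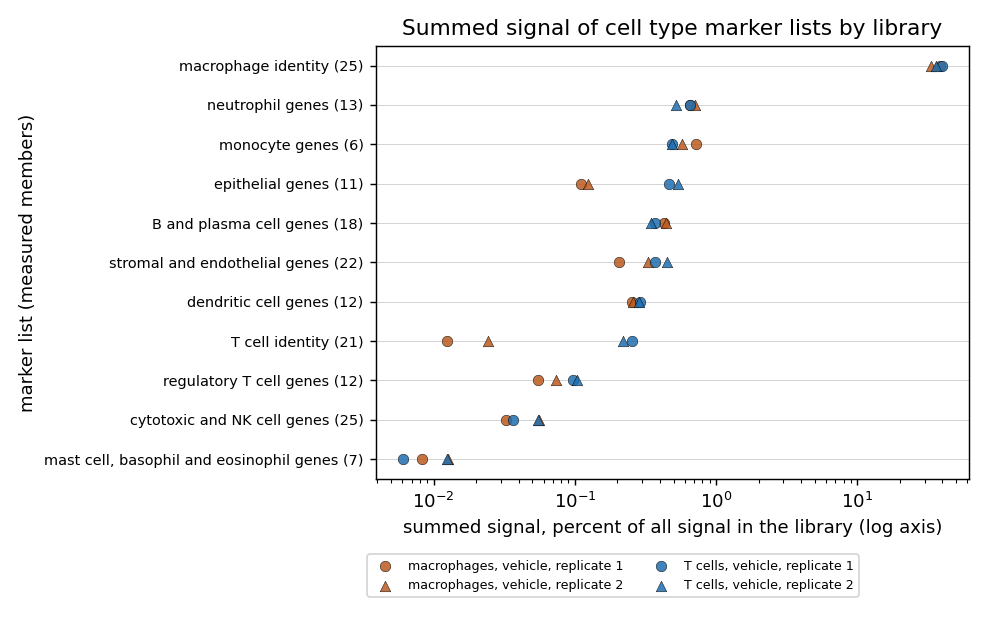
Each point is the summed signal of a marker list as a percent of all signal in a library, on a log axis, with macrophage libraries in orange and T cell libraries in blue, 2 libraries each. The macrophage identity points of both cell types lie close together near the right edge, while the T cell identity and epithelial points of the T cell libraries lie to the right of those of the macrophage libraries.

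Most calls were genes at background in macrophages and present in T cells. Linear models (limma) on log2(signal + 1), with Benjamini-Hochberg (BH) adjustment over all 770 probes, placed 16 probes higher in macrophages (2.08% of the 770) and 94 lower (12.2%) at an adjusted p below 0.05, or 14.3% in all. Without adjustment, a limma p below 0.05 held for 68 probes higher and 161 lower of the 770. Among the 94 lower, 63 had no macrophage library above 20, and 23 exceeded 20 in all 4 libraries. Among the 16 higher, 6 had a macrophage library at or below 20, where the lattice steps differ between libraries, and 10 (1.3%) had both above it. The same requirement on the T cell libraries left 89 of the lower calls (11.6%). Of all probes, 73 exceeded 20 in both T cell libraries and neither macrophage library, and 12 the reverse. The 2 groups did not overlap in 66.1% of probes, 30.4% with macrophages higher and 35.7% with macrophages lower, so lack of overlap alone says little about a gene.

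The balance of higher and lower calls depended on scaling. As deposited, 14.5% of calls were higher in macrophages and the median log2 difference over all probes was -0.03. Centring each library on its median moved that median to 0.44 and gave 200 higher and 102 lower, or 66.2% higher. Quantile normalization moved it to 0.21 and gave 104 higher and 75 lower, or 58.1% higher. The 20 housekeeping genes had a median log2 difference of 0.06 as deposited, from -0.45 to 0.67, and 0 of the 20 passed in limma (2 had an unadjusted p below 0.05). The count of 16 higher became 5 without either macrophage library, and 4 or 9 without T cell replicate 1 or 2, whereas the 94 lower ran between 63 and 101.

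**Figure D2:**
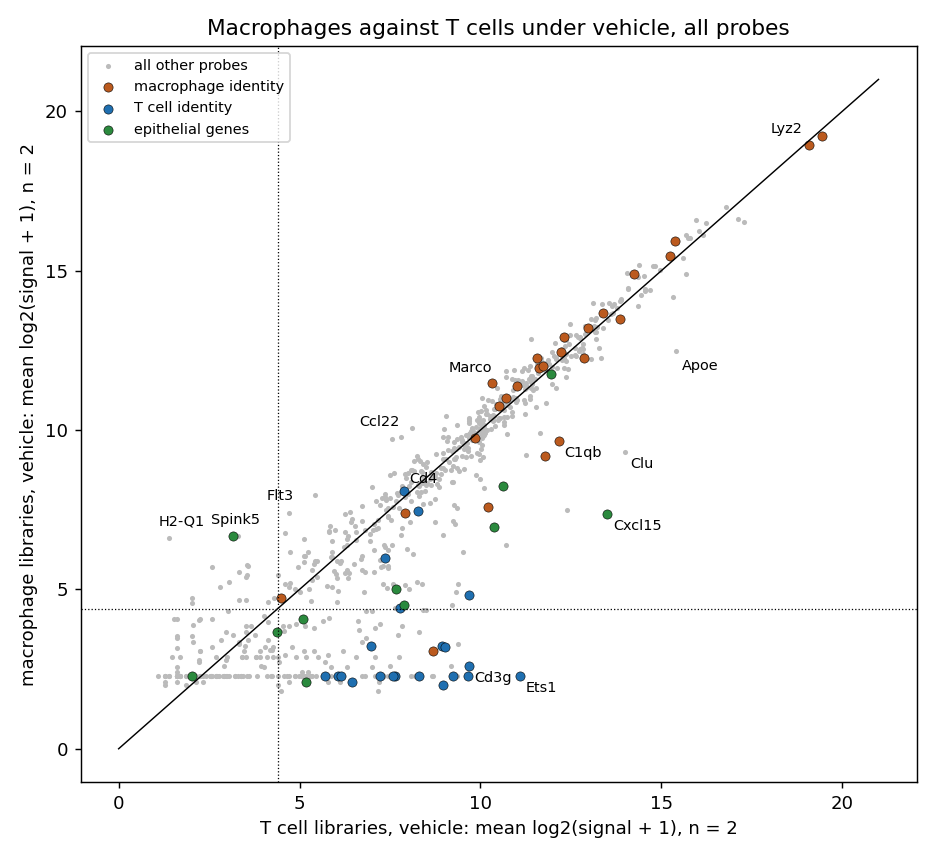
Each point is a probe, placed by its mean log2(signal + 1) in the 2 T cell libraries (x) and the 2 macrophage libraries (y). The diagonal marks equal means and the dotted lines a signal of 20, with epithelial genes in green. Macrophage identity genes in orange run along the diagonal apart from C1qb and a few others below it, and T cell identity genes in blue lie mostly in the strip below the horizontal dotted line.

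T cell identity genes had the lowest median log2 difference of the 35 gene lists. Of 21 measured T cell identity genes, 17 were lower in macrophages and 0 higher, with 4 not past the threshold, against 12.2% lower among all probes. Their median log2 difference was -4.95, or -3.19 with signals below 20 held at 20, where that of all probes was -0.03. In 20 of the 21 both macrophage libraries lay below both T cell libraries, against 35.7% of all probes.

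Cd3g, the gamma chain of CD3, read 4.96 and 5.03 in the macrophage libraries, against 721 and 934 in the T cell libraries. Cd3d, the delta chain, read 2.90 and 3.06 in the macrophage libraries, against 519.8 and 483 in the T cell libraries. Cd3e, the epsilon chain, read 13.7 and 5.03 in the macrophage libraries, against 432 and 563 in the T cell libraries. In all 3 the macrophage libraries stood at background and the T cell libraries far above it, with no overlap. Cd3g was at least 39.1-fold lower in macrophages (log2 difference -7.10 ± 0.22 (SE), limma adjusted p = 0.00313), taking a signal of 20 as the upper limit of background on the log2(signal + 1) scale. On the same terms Cd3d was at least 23.9-fold lower (limma adjusted p = 0.00313) and Cd3e at least 23.5-fold (limma adjusted p = 0.0120). Cd247, the zeta chain that carries most of the receptor's signalling motifs, read 2.90 and 5.03 in the macrophage libraries, against 387 and 256 in the T cell libraries, or at least 15-fold lower.

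The 3 CD3 genes lie side by side within chr9:44969572-45009663 of the GRCm38.p6 assembly, a stretch of 40092 bases, and Cd247 lies on chromosome 1. Their promoters are shown because these genes differed in the same direction as Ets1, an ETS factor gene with the largest difference of all probes, described below. The 250 bases before the start that the RefSeq promoter table uses, written 5′ to 3′ on the gene's strand, are given in lower case with matches to the ETS core GGAAGT or its reverse complement ACTTCC in capitals.
Cd3g, chr9:44980432-44980681, minus strand: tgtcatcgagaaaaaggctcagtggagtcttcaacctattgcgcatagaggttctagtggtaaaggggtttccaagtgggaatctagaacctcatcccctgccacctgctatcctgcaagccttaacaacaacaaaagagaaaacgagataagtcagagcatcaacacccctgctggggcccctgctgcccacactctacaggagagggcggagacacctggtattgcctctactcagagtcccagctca
Cd3d, chr9:44981536-44981785, plus strand: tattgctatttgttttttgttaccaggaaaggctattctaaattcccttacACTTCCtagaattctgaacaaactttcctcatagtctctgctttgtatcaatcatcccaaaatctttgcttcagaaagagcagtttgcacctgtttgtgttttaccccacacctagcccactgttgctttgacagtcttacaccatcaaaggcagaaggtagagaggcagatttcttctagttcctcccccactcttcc
Cd3e, chr9:45009612-45009861, minus strand: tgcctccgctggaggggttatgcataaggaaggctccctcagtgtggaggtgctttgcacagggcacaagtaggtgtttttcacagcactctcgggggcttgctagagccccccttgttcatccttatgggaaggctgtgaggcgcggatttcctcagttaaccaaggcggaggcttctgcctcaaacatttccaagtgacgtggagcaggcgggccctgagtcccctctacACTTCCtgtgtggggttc
Cd247, chr1:165788431-165788680, plus strand: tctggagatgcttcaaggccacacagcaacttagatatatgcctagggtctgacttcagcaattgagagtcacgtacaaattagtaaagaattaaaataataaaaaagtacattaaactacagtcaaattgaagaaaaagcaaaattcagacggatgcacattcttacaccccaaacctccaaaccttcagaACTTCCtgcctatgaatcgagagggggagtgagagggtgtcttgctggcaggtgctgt
Cd3g holds no match and the other 3 promoters 1 each. The table's start is the outer end of the annotated gene for Cd3g, and lies 17 bases inside it for Cd3d, 52 for Cd3e and 8729 for Cd247. The Cd247 stretch is therefore wholly within the annotated gene, and the matches of Cd3e and Cd247, though not that of Cd3d, fall inside the gene's bounds. Among the T cell identity genes lower in macrophages, 9 of 17 had a promoter in the table and 6 of those 9 held the letters, against 19.7% of all 32851 promoters and 22.2% of 27025 genes counting any promoter. For the TCF core CTTTGA or its reverse complement TCAAAG the count was 1 of 9, against 15.8% of all genes. Of the macrophage identity genes 6 of 16 held the ETS core and 2 of 16 the TCF core. Neither motif contains the other, and both strands were searched. In the whole T cell identity list, whatever the call, 7 of 10 held the ETS core and 2 of 10 the TCF core. The ETS core was chosen after the Ets1 difference was seen, and Ets1 is itself in that list. The shares of all promoters and genes are not limited to the panel. These counts are therefore no test, and a match is a description of the letters only.

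**Figure D3:**
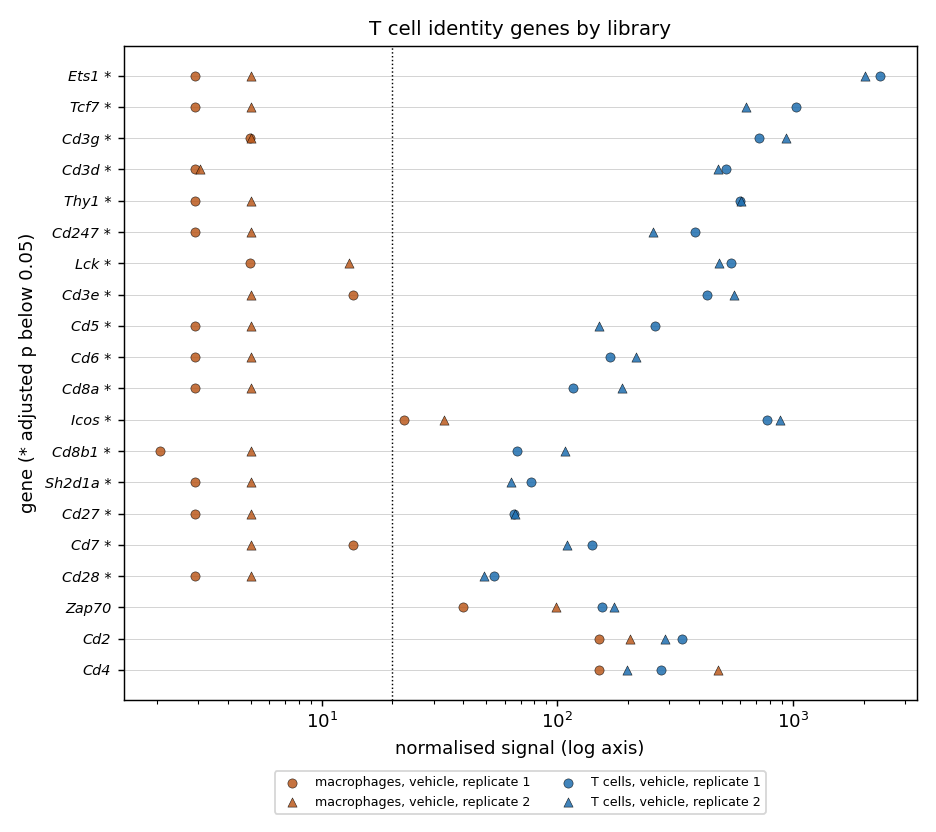
Normalised signal of 20 of the 21 T cell identity genes in each library (log axis), with macrophages in orange and T cells in blue, circles for replicate 1 and triangles for replicate 2. The dotted line marks 20. For 17 genes, starred, both macrophage points lie far to the left, while Zap70, Cd2 and Cd4 at the bottom lie above 20 in all 4 libraries.

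Downstream of the receptor, Lck, the kinase that starts its signal, read 4.96 and 13.1 in the macrophage libraries, against 549 and 485 in the T cell libraries, or at least 24.6-fold lower (limma adjusted p = 0.00980). Zap70, the next kinase, read 39.8 and 98.7 in the macrophage libraries, against 156 and 174 in the T cell libraries, and did not pass (log2 difference -1.38, limma adjusted p = 0.184). Over the 17 measured receptor signalling genes only Lck and the SLAM adaptor Sh2d1a were called, both lower (11.8% lower, against 12.2% of all probes). The list's median log2 difference was -0.14. The median of that list became 0.33 after centring and 0.078 after quantile normalization.

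Among surface proteins of T cells, Thy1, a small glycoprotein, read 2.90 and 5.03 in the macrophage libraries, against 596 and 606 in the T cell libraries, or at least 28.7-fold lower (limma adjusted p = 0.00360). Cd5 and Cd6, scavenger-type receptors that damp receptor signals, were at least 9.47- and 9.11-fold lower. Cd8a, the alpha chain of the cytotoxic coreceptor, read 2.90 and 5.03 in the macrophage libraries, against 117 and 189 in the T cell libraries, and Cd8b1, its partner chain, 2.06 and 5.03 in macrophages against 67.8 and 108 in T cells. Cd8a and Cd8b1 were at least 7.12- and 4.13-fold lower (limma adjusted p = 0.00802 and 0.0161). Cd2, an adhesion receptor, read 149.9 and 204 in macrophages against 338 and 286 in T cells and did not pass (limma adjusted p = 0.130). Cd4, the helper coreceptor, read 149.9 and 481 in macrophages against 277 and 197 in T cells. Its macrophage replicates lie on either side of both T cell libraries, so Cd4 did not part the cell types (log2 difference 0.20, limma adjusted p = 0.860).

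Lymphocyte transcription factors held the 2 largest differences of the table. Ets1, a factor of lymphocyte development, read 2.90 and 5.03 in the macrophage libraries, against 2359 and 2023 in the T cell libraries, or at least 104-fold lower (log2 difference -8.82 ± 0.30 (SE), limma adjusted p = 0.00313). Tcf7, which encodes TCF1 of naive and memory T cells, read 2.90 and 5.03 in the macrophage libraries, against 1034 and 635 in the T cell libraries, or at least 38.7-fold lower (limma adjusted p = 0.00507). Both stood at background in macrophages, with readings equal to the lattice steps, so their p-values hold no measured macrophage spread. Gata3, the type 2 helper factor, read 2.90 and 5.03 in the macrophage libraries, against 314 and 78.7 in the T cell libraries, with replicates of T cells apart by more than 3-fold. Stat4, which relays interleukin-12, was at least 3.34-fold lower. In all 6 of 19 factors were lower and 0 higher (31.6% lower, against 12.2% of all probes), among them Tbx21, the type 1 helper factor, at 2.90 and 5.03 in macrophages against 16.9 and 30.0 in T cells. Foxp3, the regulatory T cell factor, read 2.06 and 8.09 in macrophages against 42.3 and 32.1 in T cells and did not pass (limma adjusted p = 0.0700). Eomes, Batf and Pax5 had positive differences of 0.74, 0.64 and 1.39, none past the threshold. Pax5 read 4.96 and 8.09 in macrophages against 1.24 and 2.51 in T cells, all below 20, and Eomes overlapped between groups.

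Of 20 inhibitory receptors and ligands 5 were lower in macrophages and 0 higher (25% lower, against 12.2% of all probes). Ctla4, which competes with CD28 for its ligands, read 2.90 and 5.03 in the macrophage libraries, against 322 and 502 in the T cell libraries, or at least 19.2-fold lower (limma adjusted p = 0.00514). Pdcd1, which encodes PD-1, read 2.90 and 5.03 in the macrophage libraries, against 220.4 and 388 in the T cell libraries, or at least 14-fold lower (limma adjusted p = 0.00736). Lag3 and Tigit were at least 5.06- and 2.65-fold lower. These 4 receptors were at background in both macrophage libraries. The PD-1 ligand gene Cd274 read 9856 and 9276 in macrophages against 9286 and 9622 in T cells (log2 difference 0.017, limma adjusted p = 0.965). Pvr, a ligand of TIGIT, was the other of the 5, at 112 and 93.6 in macrophages against 467 and 532 in T cells (4.82-fold lower, limma adjusted p = 0.0120). Of 12 regulatory T cell genes 6 were lower and 0 higher (50% lower, against 12.2% of all probes), among them Il2ra, which gives the interleukin-2 receptor its high affinity, at 25.3 and 5.03 in macrophages against 312 and 314 in T cells. Ccr8, a chemokine receptor of tumour regulatory T cells, read 237 and 370.4 in macrophages against 107 and 151 in T cells without passing (log2 difference 1.22, limma adjusted p = 0.112).

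Costimulation genes were lower in 6 of 21 and higher in 0 (28.6% lower, against 12.2% of all probes). Icos, an inducible relative of CD28, read 22.4 and 33.2 in the macrophage libraries, against 778 and 883 in the T cell libraries, 29.3-fold lower (limma adjusted p = 0.00514). Dpp4, a peptidase that T cells carry as CD26 and epithelial cells also express, read 25.3 and 33.2 in macrophages against 604 and 667 in T cells (21.2-fold lower). Cd27, Cd28, Slamf1 and Tnfrsf18, receptors of T cell activation, were at least 3.19-, 2.50-, 2.78- and 4.50-fold lower, each from T cell signals under 110. Cd86, a ligand that antigen-presenting cells offer to CD28, read 846 and 863 in macrophages against 879.9 and 955 in T cells. The list's median log2 difference was -1.17, -0.69 after centring and 0.007 after quantile normalization.

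Among cytokine receptors, Il2rb, the signalling chain shared by interleukin-2 and interleukin-15, read 2.90 and 5.03 in the macrophage libraries, against 543 and 758 in the T cell libraries, or at least 30.6-fold lower (limma adjusted p = 0.00434). Il7r, which keeps naive and memory T cells alive, read 350.0 and 360.3 in macrophages against 966 and 1054 in T cells, 2.84-fold lower (limma adjusted p = 0.0186), so a clear signal stayed in macrophages. The common gamma chain Il2rg read 750.0 and 1357 in macrophages against 745 and 1054 in T cells, with overlap. In all 3 of 11 genes were lower and 0 higher (27.3% lower, against 12.2% of all probes). Il18r1, a receptor chain for interleukin-18, read 2.90 and 23.2 in macrophages against 560.9 and 800.3 in T cells (log2 difference -6.11 ± 1.01 (SE), limma adjusted p = 0.0390). It was the only call among 9 genes of its family (11.1% lower, against 12.2% of all probes). Il1rl1, which binds interleukin-33, read 10.8 and 33.2 in macrophages against 125 and 104 in T cells and did not pass.

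Cytotoxic and NK cell genes had low signals in the T cell libraries too. Of 25 measured, 5 were lower and 0 higher (20% lower, against 12.2% of all probes), and 7 were at or below 20 in all 4 libraries. Xcl1, a chemokine of cytotoxic cells, read 2.06 and 3.06 in macrophages against 119 and 172 in T cells, or at least 6.85-fold lower (limma adjusted p = 0.00514). Gzma, a granzyme, read 7.86 and 5.03 in macrophages against 67.8 and 263 in T cells, and Klrc1, an NK receptor, 10.8 and 18.2 in macrophages against 107 and 209.9 in T cells. Fasl and Tbx21 were the other lower calls. Prf1 and Ifng, the pore protein of killer cells and interferon gamma, read 2.06 and 18.2 in macrophages against 44.3 and 66 in T cells and 4.96 and 8.09 in macrophages against 26.7 and 74.5 in T cells. Neither passed (limma adjusted p = 0.175 and 0.0754). Gzmb read 91.9 and 139 in macrophages against 40.4 and 74.5 in T cells, with both macrophage values above both T cell values, and did not pass (log2 difference 1.03, limma adjusted p = 0.219), and Klra5, a Ly49 receptor with close paralogs, 31.1 and 83.6 in macrophages against 9.07 and 2.51 in T cells (limma adjusted p = 0.0873). Ncr1, the NK marker NKp46, read 60.0 and 83.6 in macrophages against 79.5 and 42.7 in T cells and overlapped.

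Of the B cell genes, Cd79a, Fcer2a and Pax5 did not exceed 20 in any of the 4 libraries, and Ms4a1, which encodes CD20, read 10.8 and 5.03 in macrophages against 14.9 and 6.74 in T cells. The calls among 18 genes (16.7% lower, against 12.2% of all probes) were Blnk, Cd79b and Blk, each part of B cell receptor signalling and each lower in macrophages, at 22.4 and 5.03 in macrophages against 226 and 193 in T cells for Blnk, 2.90 and 8.09 in macrophages against 63.9 and 95.6 in T cells for Cd79b and 2.90 and 5.03 in macrophages against 42.3 and 66 in T cells for Blk. Cd22, an inhibitory receptor of B cells, was abundant in both, at 2945 and 3148 in macrophages against 1835 and 2112 in T cells. Mast cell, basophil and eosinophil genes gave 0 limma calls among 7, with 1 higher and 0 lower at an unadjusted p below 0.05, against 68 and 161 of all 770 probes. Their median log2 difference was 0.77, with 5 positive. Both macrophage libraries lay above both T cell libraries in 4 and below in 1, against 30.4% and 35.7% of all probes. The gene below was Tpsab1, a mast cell tryptase, which rested on 1 library, reading 2.90 and 5.03 in macrophages against 7.11 and 326 in T cells.

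Few macrophage identity genes passed, and those that did were lower in macrophages. Of 25 measured, 0 were higher, 2 lower and 23 did not pass, where all probes gave 2.08% higher and 12.2% lower. At an unadjusted p below 0.05, limma put 2 higher and 4 lower, against 68 higher and 161 lower of all 770 probes. Both macrophage libraries lay above both T cell libraries in 13 of the 25 and below in 8, against 30.4% and 35.7% of all probes. Their median log2 difference was 0.23 as deposited, where that of all probes was -0.03, and became 0.70 after centring with 9 higher and 3 lower, and 0.24 after quantile normalization with 0 higher and 4 lower.

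Cd68, a lysosomal protein of macrophages, read 47588 and 41856 in macrophages against 38097 and 38680.3 in T cells (log2 difference 0.22 ± 0.19 (SE), limma adjusted p = 0.487). Mrc1, the mannose receptor, read 29156 and 32392 in macrophages against 19227 and 19394 in T cells (limma adjusted p = 0.105). Msr1, a scavenger receptor, read 4429 and 5543 in macrophages against 2874 and 3134 in T cells (limma adjusted p = 0.123). In each of these 3 the macrophage libraries were above the T cell libraries by under 2-fold on the log2(signal + 1) scale. Cybb, the oxidase subunit of phagocytes, and Emr1, the F4/80 antigen, had log2 differences of 0.57 and 0.60 without passing (limma adjusted p = 0.198 and 0.172). Marco, a scavenger receptor of alveolar macrophages, had the largest positive difference of the list, 1.15 ± 0.60 (SE), but read 3745 and 2182 in macrophages against 2059.8 and 802 in T cells, so replicates differed within both groups (limma adjusted p = 0.292). Lyz2 read 610840.4 and 613517 in macrophages against 639920.4 and 777341 in T cells and Chil3 553739 and 455709 in macrophages against 643822 and 470097 in T cells, with Chil3 overlapping. The sign of both turned after centring, to 0.27 and 0.34.

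Cx3cr1, the fractalkine receptor of monocytes and tissue macrophages, read 138 and 265 in the macrophage libraries, against 1149.9 and 1200.2 in the T cell libraries, 6.11-fold lower (limma adjusted p = 0.0311). The complement genes C1qa and C1qb, made chiefly by macrophages, read 385 and 874 in macrophages against 3109 and 3996 in T cells and 492 and 1311 in macrophages against 4097 and 5238 in T cells. For all 3 the groups were apart. C1qa and C1qb had log2 differences of -2.60 ± 0.49 (SE) and -2.53 ± 0.57 (SE) and narrowly missed the threshold (limma adjusted p = 0.0514 and 0.0723). Csf1r, the receptor for the macrophage growth factor CSF1, read 4374 and 5382 in macrophages against 6899 and 7902 in T cells (log2 difference -0.61, limma adjusted p = 0.176). Itgam, which encodes CD11b, read 159 and 174 in macrophages against 254 and 227 in T cells (limma adjusted p = 0.176) and its sign turned to 0.34 after quantile normalization.

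**Figure D4:**
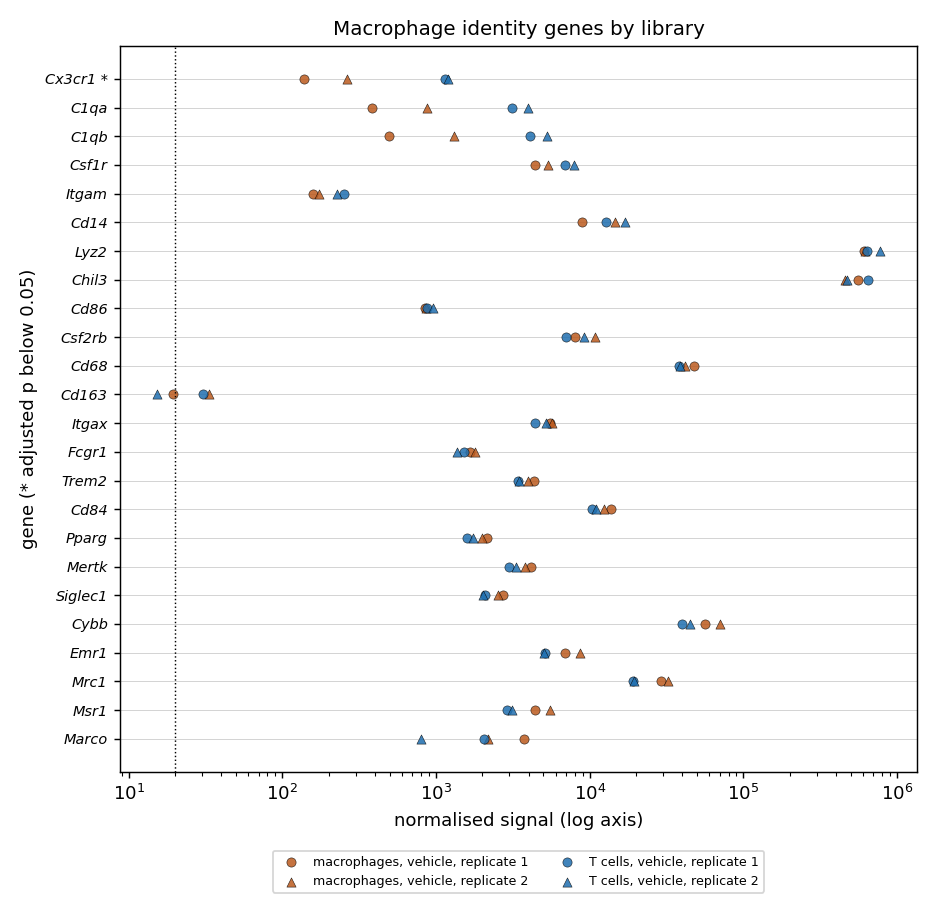
Normalised signal of 24 of the 25 macrophage identity genes in each library (log axis), with macrophages in orange and T cells in blue, circles for replicate 1 and triangles for replicate 2. Apart from Cx3cr1, C1qa and C1qb at the top, where macrophage points lie left of T cell points, the 4 points of a gene lie within about an order of magnitude, most of them far closer.

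The 10 genes called higher in macrophages with both libraries above 20 were H2-Q1, Il19, Flt3, Il3, Twist1, Ccl22, Mx1, Ccl17, Il12b and Gpr44. H2-Q1, which belongs to the Q region of the class I genes, read 94.8 and 98.7 in the macrophage libraries, against 1.24 and 2.12 in the T cell libraries, or at least 4.65-fold higher (log2 difference 5.21 ± 0.25 (SE), limma adjusted p = 0.00434). H2-Q2, a neighbouring gene of the same family, was lower, at 2.90 and 5.03 in macrophages against 30.6 and 40.6 in T cells (at least 1.73-fold, limma adjusted p = 0.0168). Both groups were apart for both genes, in opposite directions. Members of this family are near-identical and vary in number between mouse haplotypes, so which member a probe counts is uncertain in a mixed strain background. H2-Q1 was the only one of the 10 that kept its call in all 14 alternative settings.

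Of these 10, Ccl22, Ccl17 and Flt3 belong to the dendritic cell list. Ccl22, a chemokine that draws CCR4-bearing T cells, read 747 and 939 in the macrophage libraries, against 179 and 195 in the T cell libraries, 4.46-fold higher (log2 difference 2.16 ± 0.22 (SE), limma adjusted p = 0.0144). Ccl17, which shares that receptor, read 1023 and 1100.0 in macrophages against 312 and 237 in T cells (3.88-fold higher, limma adjusted p = 0.0183). Flt3, a growth factor receptor of dendritic cells and their precursors, read 147 and 194 in macrophages against 20.8 and 30.0 in T cells (6.54-fold higher, limma adjusted p = 0.0161). The dendritic cell list as a whole was split, with 3 higher and 2 lower of 12 (25% and 16.7%, against 2.08% and 12.2% of all probes). The lower members were Lamp3, expressed by mature dendritic cells and by alveolar type 2 cells, at 65.8 and 104 in macrophages against 1561 and 1803 in T cells, and Ccr7, a homing receptor of dendritic cells and naive T cells, at 193 and 209 in macrophages against 684 and 551 in T cells. Ccr4, the receptor of CCL17 and CCL22, was also lower, at 2.90 and 8.09 in macrophages against 61.9 and 53.3 in T cells.

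Il19, a cytokine of the interleukin-10 family, read 71.6 and 144 in macrophages against 7.11 and 11 in T cells (higher at least 4.89-fold, limma adjusted p = 0.0256). Twist1, a transcription factor known from mesenchymal cells, read 239.8 and 255 in macrophages against 34.5 and 51.2 in T cells (5.76-fold higher, limma adjusted p = 0.0158). Il12b, which encodes the p40 subunit that interleukin-12 shares with interleukin-23, read 34 and 53.4 in macrophages against 13 and 8.86 in T cells (higher at least 2.08-fold, limma adjusted p = 0.0496). Il3 and Mx1, a haematopoietic cytokine and an interferon-induced GTPase, read 28.1 and 23.2 in macrophages against 1.96 and 4.63 in T cells and 42.6 and 63.4 in macrophages against 9.07 and 13.1 in T cells. The macrophage signals of Il3, Mx1 and Il12b amount to few counts. Gpr44, an older symbol of the prostaglandin D2 receptor gene Ptgdr2, read 382 and 380.4 in macrophages against 195 and 165 in T cells (2.12-fold higher, limma adjusted p = 0.0483). The probe listed as Ptgdr2 read 2.90 and 5.03 in macrophages against 1.96 and 6.74 in T cells, so the table's 2 probes for this gene disagree.

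MHC class II genes, which present peptides to CD4 T cells, gave 0 limma calls among 11, and 0 higher and 0 lower at an unadjusted p below 0.05. All 770 probes gave 68 higher and 161 lower at that unadjusted level. H2-Ab1 read 23369 and 39607 in macrophages against 47525 and 57124 in T cells (log2 difference -0.78 ± 0.34 (SE), limma adjusted p = 0.233). Cd74, the invariant chain, read 68943 and 127113 in macrophages against 141809.8 and 181086 in T cells (limma adjusted p = 0.280) and H2-Eb1 457 and 848 in macrophages against 868 and 1063 in T cells. All 3 were lower in both macrophage libraries than in both T cell libraries. The list's median log2 difference was -0.38, 0.10 after centring and -0.19 after quantile normalization.

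Of 18 MHC class I genes, whose products present peptides to CD8 T cells, both macrophage libraries lay above both T cell libraries in 14, where all probes gave 30.4%. However, H2-Q1 was the only higher call and H2-Q2 the only lower one (5.56% each, against 2.08% higher and 12.2% lower of all probes). H2-K1, a classical class I heavy chain, read 33551 and 40352 in macrophages against 20014 and 22427 in T cells (log2 difference 0.80 ± 0.21 (SE), limma adjusted p = 0.0989). H2-D1, the other classical chain, read 98491 and 99625 in macrophages against 65728 and 62277 in T cells (log2 difference 0.63 ± 0.18 (SE), limma adjusted p = 0.111). Ulbp1, a ligand of the activating receptor NKG2D, read 501 and 541 in macrophages against 281 and 292 in T cells. The median was 0.42 as deposited, 0.89 after centring and 0.47 after quantile normalization, positive in all 3. Centring called 13 of the 18 higher and 1 lower, and quantile normalization 6 and 1.

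Of 36 Toll-like and other receptors of microbial products, the macrophage libraries lay above both T cell libraries in 25 and below in 5, against 30.4% and 35.7% of all probes. The single call, Mbl2, higher in macrophages (2.78% of the list, against 2.08% of all probes), was below 20 in all 4 libraries. Clec5a, a myeloid lectin, read 3368 and 3077 in macrophages against 1659 and 1659 in T cells (log2 difference 0.96 ± 0.18 (SE), limma adjusted p = 0.0514), and Mavs, the adaptor of cytosolic RNA sensors, 3223 and 4481 in macrophages against 1848 and 2051 in T cells (limma adjusted p = 0.0989). Tlr1, which pairs with TLR2, had the most negative value at 42.6 and 53.4 in macrophages against 115 and 95.6 in T cells. The list's median was 0.32, 0.79 after centring with 20 higher and 0 lower, and 0.50 after quantile normalization with 11 higher and 0 lower.

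Scavenger and Fc receptors gave 0 limma calls in either direction. At an unadjusted p below 0.05 there were 2 higher and 1 lower scavenger receptors, and 2 higher and 1 lower Fc receptors. All 770 probes gave 68 higher and 161 lower at that unadjusted level. Among 17 scavenger, mannose and phagocytic receptors the median was 0.28, with both macrophage libraries above both T cell libraries in 11 and below in 1, against 30.4% and 35.7% of all probes. Cd36, which takes up lipids, read 13083 and 7988 in macrophages against 6208 and 5269 in T cells (log2 difference 0.84, limma adjusted p = 0.199), and Abca1, which exports cholesterol, 852 and 1014 in macrophages against 1481 and 1945 in T cells (log2 difference -0.87, limma adjusted p = 0.112). Among 8 Fc receptors, Fcgr4, an activating receptor for IgG, read 16774 and 15777 in macrophages against 9326 and 8363 in T cells, whereas Fcgr2b, the inhibitory one, read 16173 and 21403 in macrophages against 40030.4 and 42096 in T cells. The groups were apart for both, in opposite directions, and neither passed (limma adjusted p = 0.0646 and 0.0598).

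Complement genes were called lower in 5 of 30 and higher in 1, Mbl2 again (16.7% lower and 3.33% higher, against 12.2% and 2.08% of all probes), shares near those of all probes. Cd55, a membrane regulator of complement, read 2.90 and 5.03 in the macrophage libraries, against 316 and 233 in the T cell libraries, or at least 13-fold lower (limma adjusted p = 0.00514). Cfi, a soluble regulator, read 2.90 and 5.03 in macrophages against 134 and 299 in T cells, or at least 9.59-fold lower (limma adjusted p = 0.0131). C6 and Serping1, a component of the membrane attack complex and the C1 inhibitor, were at least 5.04- and 2.07-fold lower. C3ar1, the anaphylatoxin receptor of myeloid cells and the fifth call, stayed well above background, at 828 and 1125 in macrophages against 3295 and 3081 in T cells (3.30-fold lower, limma adjusted p = 0.0274). C4b, C2 and C1ra had positive differences of 1.13, 0.81 and 0.80, none past the threshold.

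Of 11 epithelial genes 4 were lower in macrophages and 0 higher (36.4% lower, against 12.2% of all probes). Cxcl15, the lung epithelial chemokine lungkine, read 162 and 169 in the macrophage libraries, against 10003 and 13529 in the T cell libraries, 70.0-fold lower (log2 difference -6.13 ± 0.24 (SE), limma adjusted p = 0.00360). Muc1, an epithelial mucin, read 112 and 134 in macrophages against 1097 and 1621 in T cells (10.8-fold lower, limma adjusted p = 0.00967). Erbb2, a growth factor receptor, read 16.6 and 28.2 in macrophages against 269 and 209.9 in T cells, and Cxcl5, a chemokine that attracts neutrophils, 2.06 and 5.03 in macrophages against 36.5 and 34.2 in T cells. Of the rest, Epcam, an adhesion molecule of epithelium, read 153 and 607 in macrophages against 1561 and 1562 in T cells and did not pass (log2 difference -2.35 ± 0.75 (SE), limma adjusted p = 0.140). Cdh1, which encodes E-cadherin, read 3406 and 3576 in macrophages against 3784 and 4182 in T cells (log2 difference -0.19, limma adjusted p = 0.535). Spink5, a protease inhibitor of epithelia, read 45.5 and 219 in macrophages against 13 and 4.63 in T cells and did not pass (log2 difference 3.51 ± 0.98 (SE), limma adjusted p = 0.110). Lcn2, a lipocalin of neutrophils and of inflamed epithelium, read 182 and 174 in macrophages against 9938 and 2868 in T cells (29.8-fold lower, limma adjusted p = 0.0274).

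Stromal and vascular genes were lower in 5 of 22 and higher in 1 (22.7% lower and 4.55% higher, against 12.2% and 2.08% of all probes). Col4a1, a basement membrane collagen, read 2.90 and 5.03 in the macrophage libraries, against 414 and 402 in the T cell libraries, or at least 19.5-fold lower (limma adjusted p = 0.00426). Col3a1 and Pecam1, a fibrillar collagen and an endothelial adhesion molecule, were at least 8.35- and 7.74-fold lower (limma adjusted p = 0.00612 and 0.0168). Col1a1 read 2.90 and 5.03 in macrophages against 798 and 106 in T cells, with T cell replicates far apart, and did not pass (limma adjusted p = 0.0514). Thy1, counted above as a T cell identity gene, and Cxcl12 were the other lower calls, and Twist1 the higher one. Kdr, the main receptor of VEGF on endothelium, exceeded 20 in T cell replicate 1 alone, at 79.5 and 4.63 in the T cell libraries. Vascular genes did not all go 1 way. Cdh5 and Angpt2 were higher in both macrophage libraries without passing (log2 differences 2.18 and 1.14, limma adjusted p = 0.199 and 0.123), and Vwf overlapped (0.077). Both macrophage libraries lay below both T cell libraries in 14 of the 22 and above in 3, against 35.7% and 30.4% of all probes.

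Of 36 chemokines 7 were lower and 2 higher in macrophages (19.4% lower and 5.56% higher, against 12.2% and 2.08% of all probes). Besides Cxcl15, Xcl1 and Cxcl5, the lower calls were Ccl8 at 2.90 and 5.03 in macrophages against 32.5 and 47 in T cells, Ppbp, Cxcl12 and Ccl12, the last at 54.2 and 48.4 in macrophages against 148 and 155 in T cells. Ccl5, which effector T cells release, read 31.1 and 164 in macrophages against 500.2 and 1071 in T cells and did not pass (log2 difference -3.33, limma adjusted p = 0.120). Ccl6, among the 10 probes with the highest T cell signal, read 65059 and 67246 in macrophages against 54807 and 58798 in T cells. Of 19 chemokine receptors 5 were lower and 0 higher (26.3% lower, against 12.2% of all probes). Cxcr6, a receptor of tissue-resident T cells, read 4.96 and 5.03 in the macrophage libraries, against 508 and 667 in the T cell libraries, or at least 27.8-fold lower (limma adjusted p = 0.00313).

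Of 27 inflammatory cytokine genes of myeloid cells 2 were higher, Il19 and Il12b, and 1 lower (7.41% higher and 3.70% lower, against 2.08% and 12.2% of all probes). The lower one was Thbs1, a matrix glycoprotein of platelets and macrophages, at 36.9 and 33.2 in macrophages against 841 and 532 in T cells (18.6-fold lower, limma adjusted p = 0.00736). Vegfa, the vascular growth factor, read 422 and 828 in macrophages against 1888 and 3134 in T cells, Lif, a cytokine of the interleukin-6 family, 48.5 and 93.6 in macrophages against 207 and 375 in T cells, and Arg1, the arginine-degrading enzyme, 141 and 245 in macrophages against 661 and 639 in T cells. In all 3 both macrophage values lay below both T cell values, and none passed (limma adjusted p = 0.0789, 0.0851 and 0.0514). Over the list the groups were apart in that direction in 9 of 27 and in the other in 4, against 35.7% and 30.4% of all probes. Il1b read 2837 and 5155 in macrophages against 4737 and 6321 in T cells, with overlap between groups. Spp1, which encodes osteopontin, was among the 10 probes with the highest signal in both and read 50569 and 101345 in macrophages against 55562 and 96934 in T cells. Replicates of a cell type differed more than the cell types did.

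Growth factor genes of the myeloid lineage included Il34, a second ligand of the CSF1 receptor, at 2.90 and 5.03 in macrophages against 111 and 165 in T cells (lower at least 6.50-fold, limma adjusted p = 0.00775), and Flt3l, the ligand of FLT3, at 7.86 and 13.1 in macrophages against 99.1 and 129 in T cells (lower at least 5.44-fold, limma adjusted p = 0.0143). Flt3 itself was higher in macrophages, as given above, so ligand and receptor genes differed in opposite directions. Csf1 read 275 and 340.2 in macrophages against 328 and 470.2 in T cells, with no call. Of 21 cytokine genes of T helper and other lymphocytes 1 was higher, Il3, and 1 lower (4.76% each, against 2.08% higher and 12.2% lower of all probes). The lower one was Il13, a type 2 cytokine, at 2.90 and 5.03 in macrophages against 14.9 and 17.3 in T cells. Of 6 monocyte genes 1 was lower and 0 higher (16.7% lower, against 12.2% of all probes). Of 13 neutrophil genes 1 was lower, Lcn2, and 1 higher (7.69% each, against 12.2% lower and 2.08% higher of all probes). The higher one was Elane, the neutrophil elastase, at 13.7 and 8.09 in macrophages against 1.96 and 2.12 in T cells, a reading of few counts.

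Interferon response genes gave 3 lower and 2 higher calls among 39 (7.69% lower and 5.13% higher, against 12.2% and 2.08% of all probes). Ifitm1, a restriction factor, read 2.90 and 5.03 in macrophages against 150.0 and 80.8 in T cells (lower at least 5.29-fold, limma adjusted p = 0.0134), and Socs1, an inhibitor of cytokine signalling, 45.5 and 23.2 in macrophages against 159.8 and 239.5 in T cells (5.86-fold lower, limma adjusted p = 0.0454). Oasl1 was the third lower call, and Ido1, one of the higher ones, was below 20 in every library. The median was 0.25, 0.72 after centring with 14 higher and 3 lower, and 0.50 after quantile normalization with 5 higher and 1 lower. TNF superfamily ligands were lower in 2 of 16, Tnfsf13b, the B cell factor BAFF, at 2.90 and 5.03 in macrophages against 50.2 and 82.9 in T cells and Fasl at 2.90 and 5.03 in macrophages against 36.5 and 42.7 in T cells. Their receptors were lower in 2 of 21, Cd27 and Tnfrsf18. These shares, 12.5% and 9.52%, lie near the 12.2% of all probes.

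The 15 NF-kB genes had a median log2 difference of -0.025 (0.45 after centring and 0.016 after quantile normalization) with 0 limma calls and 0 lower and 0 higher at an unadjusted p below 0.05, and the largest size belonged to Tnfaip3, the inhibitor A20, at 2475 and 4209.5 in macrophages against 4606 and 6112 in T cells (log2 difference -0.72). The 5 proliferation genes gave 0 limma calls as well, with a median of 0.11 and 0 at an unadjusted p below 0.05 in either direction. The unadjusted counts over all 770 probes were 68 higher and 161 lower. Of 10 genes in the list of immediate-early factors and MAP kinase phosphatases Ets1 and Dusp4 were lower and 0 higher (20% lower, against 12.2% of all probes). Ets1 is neither kind of gene and was counted above as a T cell identity gene and lymphocyte factor, which leaves Dusp4 as the list's own call. Dusp4, a phosphatase induced by receptor signals, read 2.90 and 5.03 in the macrophage libraries, against 612 and 686 in the T cell libraries, or at least 30.9-fold lower (limma adjusted p = 0.00360), while Dusp6 read 3855 and 3993 in macrophages against 5169 and 4984 in T cells. Of 35 integrins, selectins and adhesion molecules 6 were lower and 1 higher (17.1% lower and 2.86% higher, against 12.2% and 2.08% of all probes). Itgb4, an epithelial integrin chain, read 2.06 and 5.03 in macrophages against 269 and 78.7 in T cells (limma adjusted p = 0.0317). The higher call, Jam3, was below 20 in all 4 libraries.

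**Figure D5:**
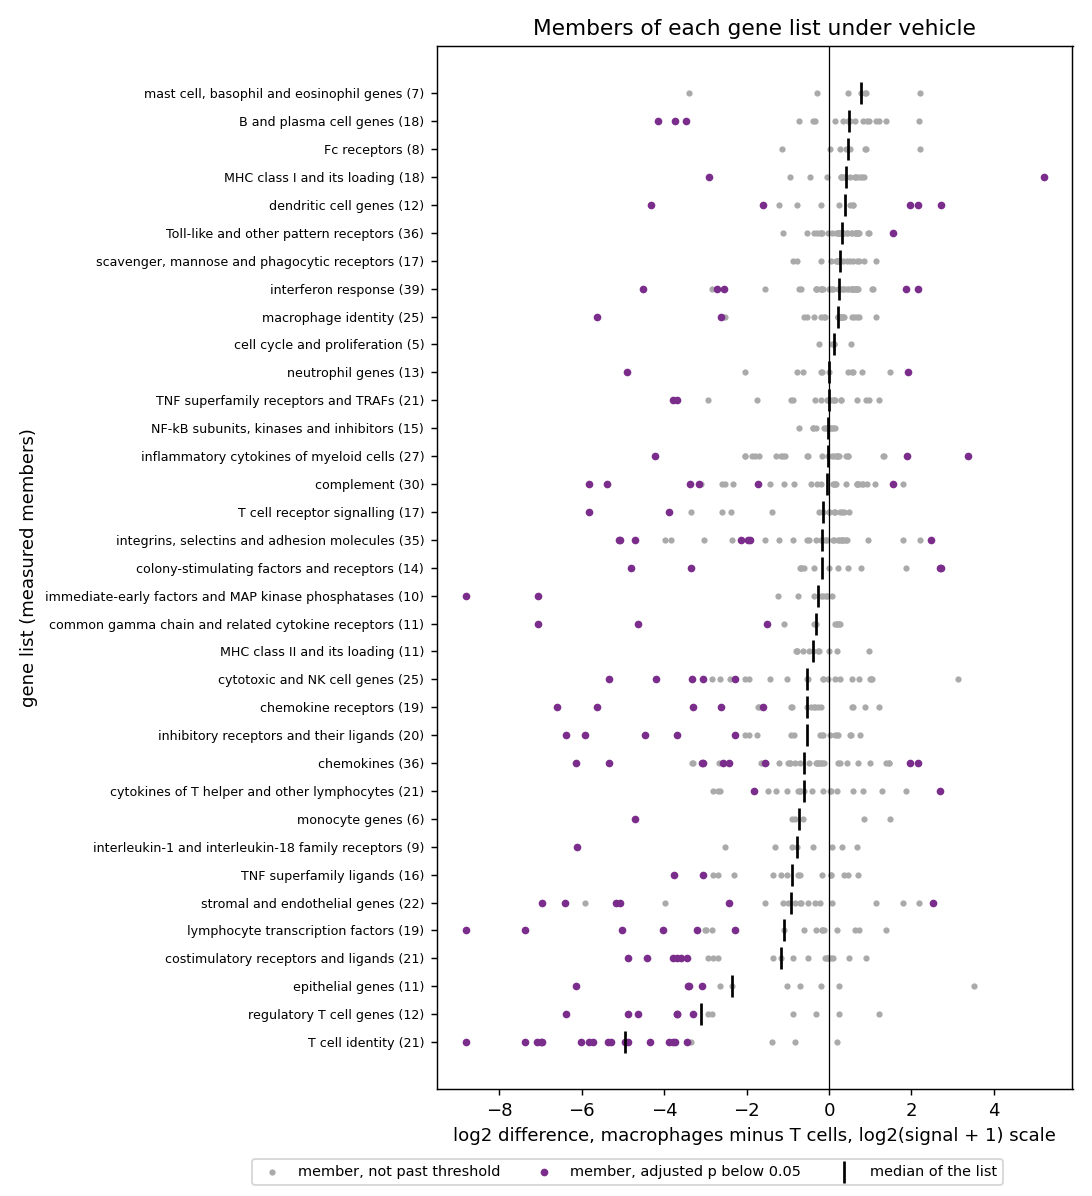
Each row is a gene list and each point a measured member, placed by its log2 difference (macrophages minus T cells on the log2(signal + 1) scale), purple where the adjusted p was below 0.05. The black tick is the list's median, lowest for T cell identity at -4.95. Purple points lie mostly left of 0. The ticks furthest right are those of mast cell, basophil and eosinophil genes at 0.77 and of B and plasma cell genes at 0.49. Ticks of Fc receptor, MHC class I, dendritic cell, pattern receptor and macrophage genes lie slightly right of 0.

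The calls rest on 2 libraries a group, and leaving out 1 library moved many of them past 0.05. Of 73 named calls, 44 kept an adjusted p below 0.05 without macrophage replicate 1, 55 without macrophage replicate 2, 51 without T cell replicate 1 and 53 without T cell replicate 2. In all 4 of these fits 34 of the 63 lower calls and 1 of the 10 higher calls, H2-Q1, kept it. In the 14 alternatives together 28 lower calls kept it, among them Ets1, Tcf7, Cd3d, Cd3e, Cd3g, Cd247, Lck, Thy1, Il2rb, Ctla4, Pdcd1, Cxcr6, Cxcl15 and Col4a1. None of the 73 changed direction in any of the 14.

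Without macrophage replicate 1 alone, Blk, Muc1, Ccl8, Cfi, Ifitm1 and Tnfsf13b lost the call (limma adjusted p from 0.0508 for Muc1 to 0.0607 for Blk). Without either macrophage library it was lost for Gzma, Lcn2, Pecam1, Gata3 and Itgb4 (highest limma adjusted p from 0.0744 for Pecam1 to 0.155 for Gzma). Without either T cell library it was lost for Il2ra, Blnk, Cx3cr1, Cxcl5, Ccr4, C6 and Il18r1 (highest limma adjusted p from 0.0609 for Cxcl5 to 0.103 for C6). Ccr7, Il7r and Socs1 passed in none of the 4 fits (highest 0.129, 0.135 and 0.114). Klrc1, Cd79b, Tigit, H2-Q2, Serping1, Oasl1 and Amica1 missed it in 2 or 3 of them (highest from 0.0549 for H2-Q2 to 0.138 for Oasl1). Among the higher calls Il19 missed it without T cell replicate 1 (0.0607), Ccl22 without either T cell library (highest 0.0673), and Flt3, Il3 and Twist1 passed without T cell replicate 2 alone (highest elsewhere 0.0565, 0.122 and 0.0684). Mx1, Ccl17, Il12b and Gpr44 passed in none of the 4 (lowest 0.0651, 0.0561, 0.0744 and 0.122).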

How the data were processed

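The deposited table, the authors' own, holds 1 normalised signal per probe and library on a linear scale for a NanoString assay, which counts RNA molecules by coloured barcodes. The unit was read from the values. The normalisation of these signals is a step not given in the sources used here. Per the labels, RNA came from purified T cells and macrophages of lung tumour cell suspensions. In each library 100% of the low values lay within 0.1 of a lattice step, and total signal over the step gave the depth. The offset of the lattice is unknown, so whole counts were not recovered and no counting interval is given.

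The 2 vehicle macrophage and 2 vehicle T cell libraries entered lmFit and eBayes of limma 3.58.1 (R 4.3.3) as log2(signal + 1). The tests are two-sided, adjusted by BH over 770 probes and called at 0.05. With 2 residual degrees of freedom the prior added 1.67. A fold is on the log2(signal + 1) scale, which understates changes of low genes. The fit was checked on simulated data. Where no library of the lower group exceeded 20, the fold is the higher group's mean over a signal of 20 on that scale, written "at least".

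Members, gene lists (35, with 527 of the probes) and settings were chosen with earlier results of these data known, and no list was tested as a set. Named genes are the 10 largest calls per direction with groups apart and the higher group above 20, the 10 probes with the highest signal per group, up to 4 calls per list and direction, a fixed set of reference genes, and list members short of the threshold, largest first. Other genes named (such as Cd274, Cd86, Il2rg, Csf1, Dusp6, Cd22, Tpsab1 and Kdr) were chosen after their values were seen. Housekeeping genes were named from knowledge of the panel. Of 770 symbols, 754 matched a GRCm38.p6 gene table by symbol, 8 by synonym and 2 by letter case, and 6 did not match. Promoters are RefSeq's on GRCm38.p6. Figures used matplotlib 3.10.9 under Python 3.11.15. A few members of the lists are counted with them but not reported here by name or in the plots of single genes.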

Additional observations from a re-analysis of the deposited data

How the results depend on the processing

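The 94 lower calls became 62 with all 12 libraries in the fit and 63 to 101 with 1 library left out, and stayed within 1.5 times of 94 under the other alternatives. The 16 higher calls became 33 with a pseudocount of 20, 200 with median centring, 104 with quantile normalization, 60 with a mean-variance trend, 2 with all 12 libraries and 4 to 9 with 1 library left out. The 10 higher calls with both macrophage libraries above 20 became 20 with a filter on low probes, 31, 172, 76, 57 and 2 under the same 5 alternatives, 24 with signals below 20 set to 20 (a setting chosen after seeing the data) and 3 to 5 with 1 library left out. The cause of these shifts was not tested. The labels give the cell types no shared replicate numbers. Deviations of libraries matched by label order correlated at 0.078 across all probes, 94 of which were at or below 20 in all 4 libraries. That value cannot decide whether matched libraries share animals, which the labels do not say. With label order as a replicate block limma called 12 higher and 83 lower, and 59 of the 73 named calls were kept. Of those 73, 58 were kept with quantile normalization, 72 with the trend, 47 with all 12 libraries, 64 with signals below 20 set to 20, and 73 with the filter, without housekeeping probes, with pseudocounts of 5 and 20 and with centring.

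Among named genes short of the threshold some changed sign. With median centring the log2 differences were 0.27 for Lyz2, 0.34 for Chil3, 0.44 for Spp1, 0.074 for Ms4a1, 0.10 for Cd14 and 0.28 for Cdh1. With quantile normalization they were 0.16 for Lyz2, -0.032 for Ctss, -0.13 for Ccl6, 0.80 for Ms4a1 and 0.34 for Itgam. With 1 library left out they ran from -0.36 to 0.10 for Chil3, -0.54 to 0.47 for Spp1, -0.64 to 1.04 for Cd4, -0.92 to 0.12 for Ms4a1, -0.26 to 0.71 for Cd163 and -0.16 to 0.72 for Ncr1. Depth limits the low genes, since 20 is 3.97 counts in macrophage replicate 2.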

Other observations

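Genes outside the lists held 16 of the lower and 3 of the higher calls, and those below were chosen after their values were seen. Apoe, the lipid carrier of macrophages, read 4267 and 7717 in macrophages against 40275 and 47489.5 in T cells (7.62-fold lower in macrophages, limma adjusted p = 0.0218). Clu, the chaperone clusterin of epithelial and other cells, read 466 and 868 in macrophages against 11269 and 23728 in T cells (25.7-fold lower, limma adjusted p = 0.0181). Both stood far above background in all 4 libraries, and the groups were apart. Bcl2, a survival factor of lymphocytes, read 7.86 and 5.03 in macrophages against 291 and 159 in T cells (lower at least 10.3-fold, limma adjusted p = 0.00980). Smad3, which relays TGF-beta signals, read 16.6 and 23.2 in macrophages against 334 and 347 in T cells, and Gpr183, an oxysterol receptor of lymphocytes and dendritic cells, 34 and 28.2 in macrophages against 234 and 284 in T cells. Igf2r and Igf1r, receptors for insulin-like growth factors, read 4.96 and 5.03 in macrophages against 177 and 182 in T cells and 31.1 and 13.1 in macrophages against 175 and 227 in T cells. Tfrc, the transferrin receptor, had the smallest difference among the lower calls, at 411 and 355 in macrophages against 903 and 959 in T cells (2.43-fold lower, limma adjusted p = 0.0317).

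Cmah, the enzyme that makes the sialic acid Neu5Gc, read 2.90 and 5.03 in macrophages against 213 and 182 in T cells, and Pla2g1b, a secreted phospholipase, 2.90 and 8.09 in macrophages against 105 and 155 in T cells. Saa1 and Crp, acute-phase genes called higher in macrophages, read 13.7 and 18.2 in macrophages against 3.20 and 1.0 in T cells and 28.1 and 18.2 in macrophages against 1.96 and 4.63 in T cells, signals of a few counts on a lattice that is coarser in macrophages. Lbp, which carries lipopolysaccharide, read 2.06 and 23.2 in macrophages against 465 and 389.8 in T cells and did not pass (log2 difference -5.63, limma adjusted p = 0.0580), with replicates apart only in macrophages.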
